A study of Sus scrofa with 2 samples.

Results

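Type A intercalated cells (IC-A) of the collecting system were examined as nuclei of pig renal cortex. A nucleus was counted as IC-A when the 3 genes SLC26A7, ATP6V0D2 and SLC4A1 together gave at least 8 of every 10000 of its molecular tags (UMIs, counted in place of reads so that each RNA molecule is counted once). It also had to stay below 5 per 10000 for SLC26A4, 50 for SLC8A1, 30 for LRP2 and CUBN together and 20 for SLC12A1, and to have 500 to 6000 detected genes. This rule took 571 of 12955 nuclei. As the counts of these genes chose the nuclei, their levels are given as a description, and so are all levels of IC-A nuclei against other nuclei.

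Single-nucleus RNA sequencing had been done on snap-frozen cortex of slaughterhouse pig kidneys, taken either before perfusion (unperfused) or after normothermic ex vivo perfusion (perfused). Each condition had 1 library, and the sources used here do not say whether both pieces came from 1 animal. No difference between the libraries therefore has a replicate check, no p-value was computed, and perfusion cannot be told apart from the animal, the piece of cortex or the library. Values are UMIs summed over the nuclei of a class, scaled to the class total (CPM). Intervals are exact 95% intervals of the counts alone, and they are too narrow where few nuclei hold a gene's UMIs.

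Intercalated cells secrete acid or base into the urine of the connecting tubule and collecting duct. IC-A cells place a vacuolar proton pump (V-ATPase) in the apical membrane and return bicarbonate to the blood through the basolateral anion exchanger encoded by SLC4A1, with carbonic anhydrase supplying both ions. Type B cells (IC-B) carry the apical exchanger pendrin, encoded by SLC26A4, and principal cells (PC) of the same duct take up sodium and water through ENaC and aquaporin 2. For comparison, 127 IC-B-like nuclei were picked by SLC26A4, 912 PC-like nuclei by AQP2, AQP3, SCNN1B and SCNN1G, and 1134 nuclei of the proximal tubule (PT-like) by LRP2 and CUBN.

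The unperfused library held 400 IC-A nuclei with 1944041 UMIs, a median of 4419.5 UMIs and 2363 genes per nucleus. The perfused library held 171 with 1073158 UMIs, a median of 6106 UMIs and 2717 genes. In each library the rule genes reached their minimum in more nuclei, 445 and 207, of which 6 and 4 were left out by SLC26A4 and 39 and 32 by another limit alone. The members nearest the minimum had 8.04 (unperfused) and 8 (perfused) per 10000, and the nearest nuclei left out had 7.86 and 7.96. The 2 libraries shared 14 barcodes, and 0 of them were IC-A in both.

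IC-A nuclei were 5.69% of nuclei in the unperfused library (400 of 7035, 5.16 to 6.25%) and 2.89% in the perfused library (171 of 5920, 2.48 to 3.35%). Picked by 6 other genes in place of the rule genes (ATP6V1B1, ATP6V0A4, ATP6V1G3, FOXI1, KCNMA1 and HRH2), the shares were 9.24% and 5.10%. Of the nuclei so picked, 53.1% and 47.4% met the rule, so these shares also count nuclei outside it. PC-like nuclei were 8.26% and 5.59%, and PT-like nuclei were 7.68% and 10.0%, higher in the perfused library. IC-B-like nuclei were 1.24% and 0.676%. IC-A thus made up 82.1% (78.4 to 85.4%) and 81.0% (75.1 to 86.1%) of the intercalated nuclei, with overlapping intervals. Of IC-A, IC-B-like and PC-like nuclei together they were 37.5% (34.5 to 40.4%) and 31.5% (27.7 to 35.6%). A share of nuclei also moves with the cortex sampled and with which nuclei survive isolation, and these were not tested.

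The label was set beside 3 IC-A markers that the rule did not use. They were KCNMA1 (the pore of the large-conductance calcium-activated potassium channel), HRH2 (the histamine H2 receptor) and PDE1C (a calmodulin-dependent phosphodiesterase). These markers were chosen with earlier results of these data known, so this is a description and no independent check. HRH2 had a UMI in 66.7% (unperfused) and 70% (perfused) of IC-B-like nuclei, and PDE1C in 80.5% and 85%. Neither thus separates the intercalated types by detection. Of the members with at least 10 UMIs of the rule genes, 322 unperfused and 138 perfused, all 3 markers had a UMI in 66.5% and 70.3%, and none had one in 5 and 0 nuclei. The members with 1 or 2 rule UMIs went against the label. Of these 47 unperfused and 21 perfused nuclei, 40 and 18 had no UMI of any of the 3 markers. Their median depth was 1204 and 999 UMIs, and at such a total 1 or 2 UMIs reach the minimum. SLC4A9 and FOXI1 had no UMI in them, whereas CD74, an immune gene, stood at 682 and 1918 CPM against 182 and 137 CPM in the members with 10 or more, and FLT1, an endothelial gene, at 651 and 174 CPM against 40.8 and 40.4 CPM.

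Members with 3 to 9 rule UMIs, 31 and 12 nuclei, lay between. AQP2, the water channel of principal cells, stood at 420 and 355 CPM in them, against 5.59 and 3.95 CPM in the members with 10 or more. Of these nuclei 9 and 9 had none of the 3 markers. The name IC-A is therefore used below for the rule as a whole, and several results are also given for the 322 and 138 nuclei with at least 10 rule UMIs. Calls of doublets fell on 35 of the 400 (8.75%) and 11 of the 171 (6.43%), against 9.12% and 8.27% of all scored nuclei.

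**Figure D1:**
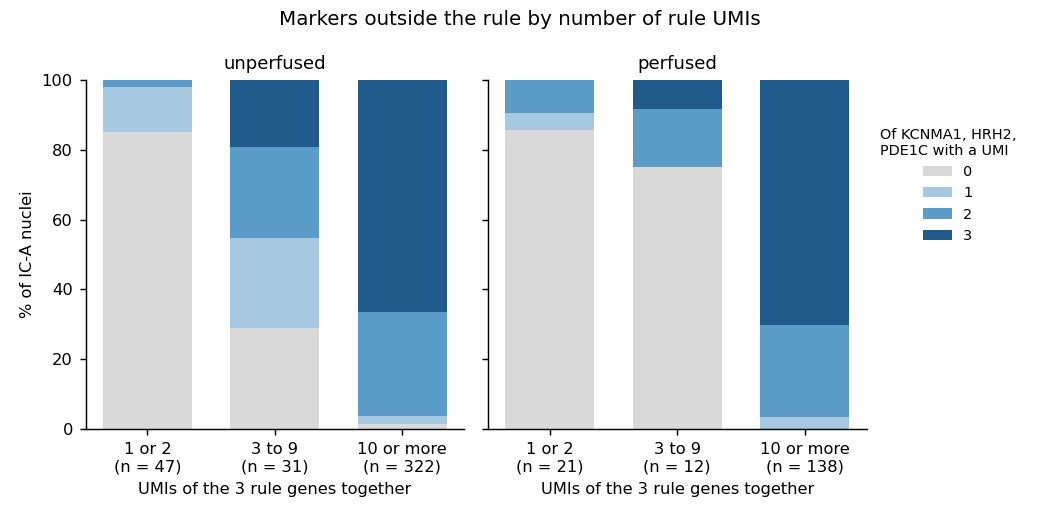
Stacked bars give the percentage of IC-A nuclei with a UMI of 0, 1, 2 or all 3 of KCNMA1, HRH2 and PDE1C, in the unperfused (left) and perfused (right) library, by the number of UMIs of the 3 rule genes in the nucleus (n, nuclei per bar). The grey share without any of the markers was 85.1% and 85.7% at 1 or 2 rule UMIs and 1.55% and 0% at 10 or more.

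Of the rule genes, SLC26A7, a chloride-bicarbonate exchanger, had 5538 CPM in unperfused and 5725 CPM in perfused IC-A nuclei. ATP6V0D2, the d2 subunit of the V-ATPase, had 856 and 1114 CPM, and SLC4A1 had 210.4 and 211 CPM. Single nuclei varied widely: the 10th percentile, median and 90th percentile of SLC26A7 were 9.72, 46.3 and 95.9 per 10000 UMIs among unperfused members and 10.5, 45.1 and 96.5 among perfused ones. SLC26A7 had a UMI in 97.2% of unperfused and 98.2% of perfused members, and SLC4A1 in 54.2% and 53.2%.

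Among the markers outside the rule, KCNMA1 had 1194 CPM (1146 to 1243) in unperfused and 1466 CPM (1394 to 1540.0) in perfused IC-A nuclei. In IC-B-like nuclei it had 58.4 and 46.3 CPM, in PC-like nuclei 9.22 and 3.90 CPM and in PT-like nuclei 8.34 and 7.33 CPM. It had a UMI in 73.2% and 67.3% of IC-A nuclei, and in 54.1% and 54.6% when each nucleus was thinned to 1000 UMIs, which left out the shallower ones. In PT-like nuclei, with a median of 4913 and 6251.5 UMIs, the share with a UMI was 3.52% and 2.36%.

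HRH2 and PDE1C did not set IC-A nuclei apart from the other intercalated type to the same degree. HRH2 had 437 and 659.7 CPM in IC-A and 303 and 321 CPM in IC-B-like nuclei, against 10.5 and 0.557 CPM in PC-like nuclei. PDE1C had 3686 and 4549 CPM in IC-A and 999 and 1290.1 CPM in IC-B-like nuclei, against 25.5 and 29.5 CPM in PC-like nuclei. Both genes were thus shared by the intercalated types and low in principal cells, whereas KCNMA1 was low in both other classes.

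**Figure D2:**
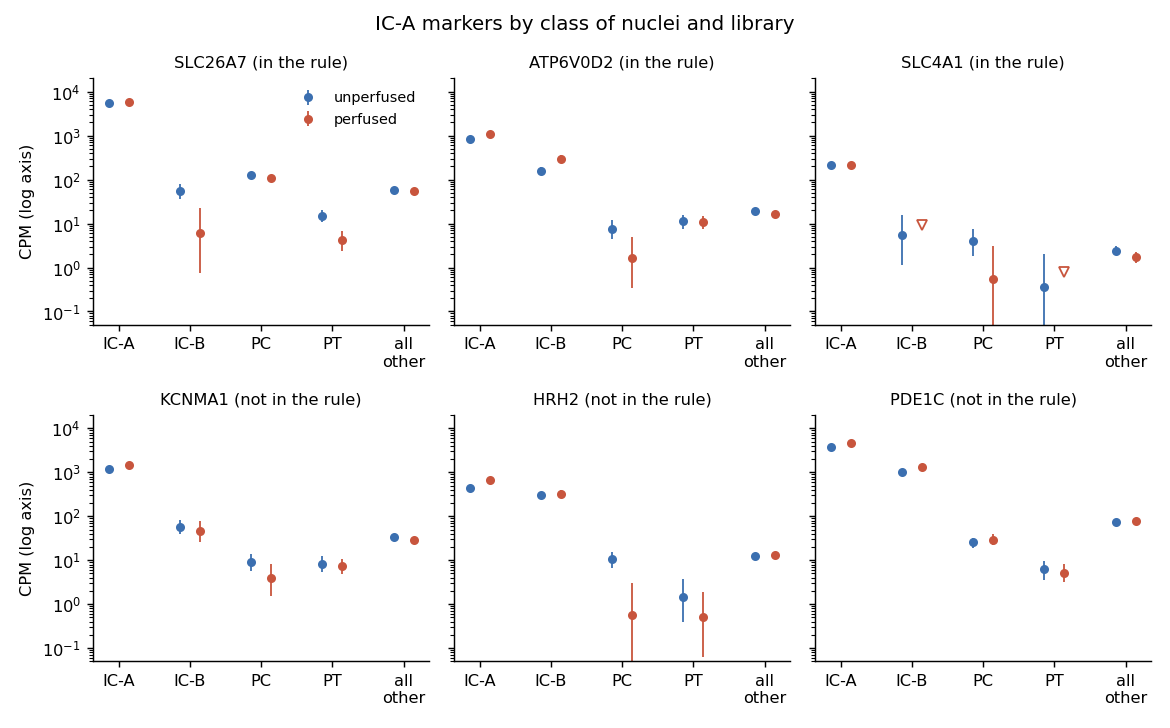
CPM on a log axis of 6 marker genes in IC-A, IC-B-like, PC-like and PT-like nuclei and in all nuclei other than IC-A, in the unperfused (blue) and perfused (red) library. Bars are exact 95% counting intervals, and open triangles mark 0 UMIs at the level of 3 counts. KCNMA1 stood at 1194 and 1466 CPM in IC-A and at or below 58.4 CPM in IC-B-like, PC-like and PT-like nuclei.

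By level over all other nuclei, the 15 leading genes were SLC26A7, PDE1C, ATP6V0D2, KCNMA1, SLC4A1, GPC5, GLDN, HRH2, SLC31A2, ATP6V1C2, DMRT2, KIT, ADGRF1, SNAP91 and ADGRF5. All 15 were ranked by the lower of the 2 libraries' folds, with 5 CPM added to each level. ADGRF5, an adhesion receptor, had 5318 and 7540.4 CPM in IC-A nuclei, 71.1 and 160.5 CPM in IC-B-like nuclei and 143 and 85.3 CPM in PC-like nuclei. Its relative ADGRF1 had 1795 and 2732 CPM in IC-A, 74.8 and 12.3 CPM in IC-B-like, and 581 and 560.1 CPM in PC-like nuclei, so that principal cells held it too. KIT, a receptor tyrosine kinase, had 1316 and 1478 CPM in IC-A and 487 and 481 CPM in IC-B-like nuclei. DMRT2, a transcription factor, had 167 and 179.8 CPM in IC-A nuclei. In IC-B-like nuclei DMRT2 had 3.65 CPM in the unperfused library and 0 UMIs in the perfused one, with an exact upper bound of 11.4 CPM.

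The genes were not spread alike over the members. GPC5, a glypican, had a UMI in 28.8% and 22.2% of IC-A nuclei, and the richest 10% of the nuclei held 74.2% and 81.7% of its UMIs. The 10% of nuclei richest in SLC26A7 held 28.6% and 30.6% of its UMIs, and those richest in PDE1C 29.6% and 28.3%. These nuclei were picked anew for each gene. GPC5 thus came from a minority of the members in both libraries.

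The V-ATPase has a cytosolic V1 part that splits ATP and a membrane V0 part that carries protons, and several subunits have a second isoform that is largely restricted to cells specialised in proton secretion. Of 24 genes on the list, 20 were in the files and 19 had at least 30 UMIs in IC-A nuclei. In both libraries 9 of the 19 were at least 2-fold over all other nuclei, where 5.95% of all genes tested were. Over PC-like nuclei 10 of the 19 were, against 5.52% of all genes, and over IC-B-like nuclei 1 was, against 4.22%. That 1 was ATP6V0D2, which is in the rule and is also among the 9 and the 10. PC-like nuclei had to lie below the rule's minimum. The median log2 difference of the list was 1.07 from PC-like and -0.30 from IC-B-like nuclei, where it was -0.07 and -0.16 over all genes tested.

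Among the genes over PC-like nuclei were the restricted isoforms. ATP6V1C2 had 1512 and 1919.6 CPM in IC-A nuclei, 1621 and 1988 CPM in IC-B-like nuclei, and 10.1 and 8.36 CPM in PC-like nuclei. ATP6V0A4, the a4 subunit, had 1577 and 1949 CPM in IC-A, 1275 and 1531 CPM in IC-B-like, and 65.4 and 59.1 CPM in PC-like nuclei. ATP6V1G3 had 291 and 479.9 CPM in IC-A, 450.4 and 645 CPM in IC-B-like, and 12.7 and 12.8 CPM in PC-like nuclei. ATP6V0A1, the widely used a1 subunit, ran the other way, at 50.9 and 44.7 CPM in IC-A against 742 and 661 CPM in PT-like nuclei. ATP6V1B1, often used as a marker of intercalated cells, had 490.2 and 568 CPM in IC-A, but also 292 and 254 CPM in PC-like and 262 and 267 CPM in PT-like nuclei.

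**Figure D3:**
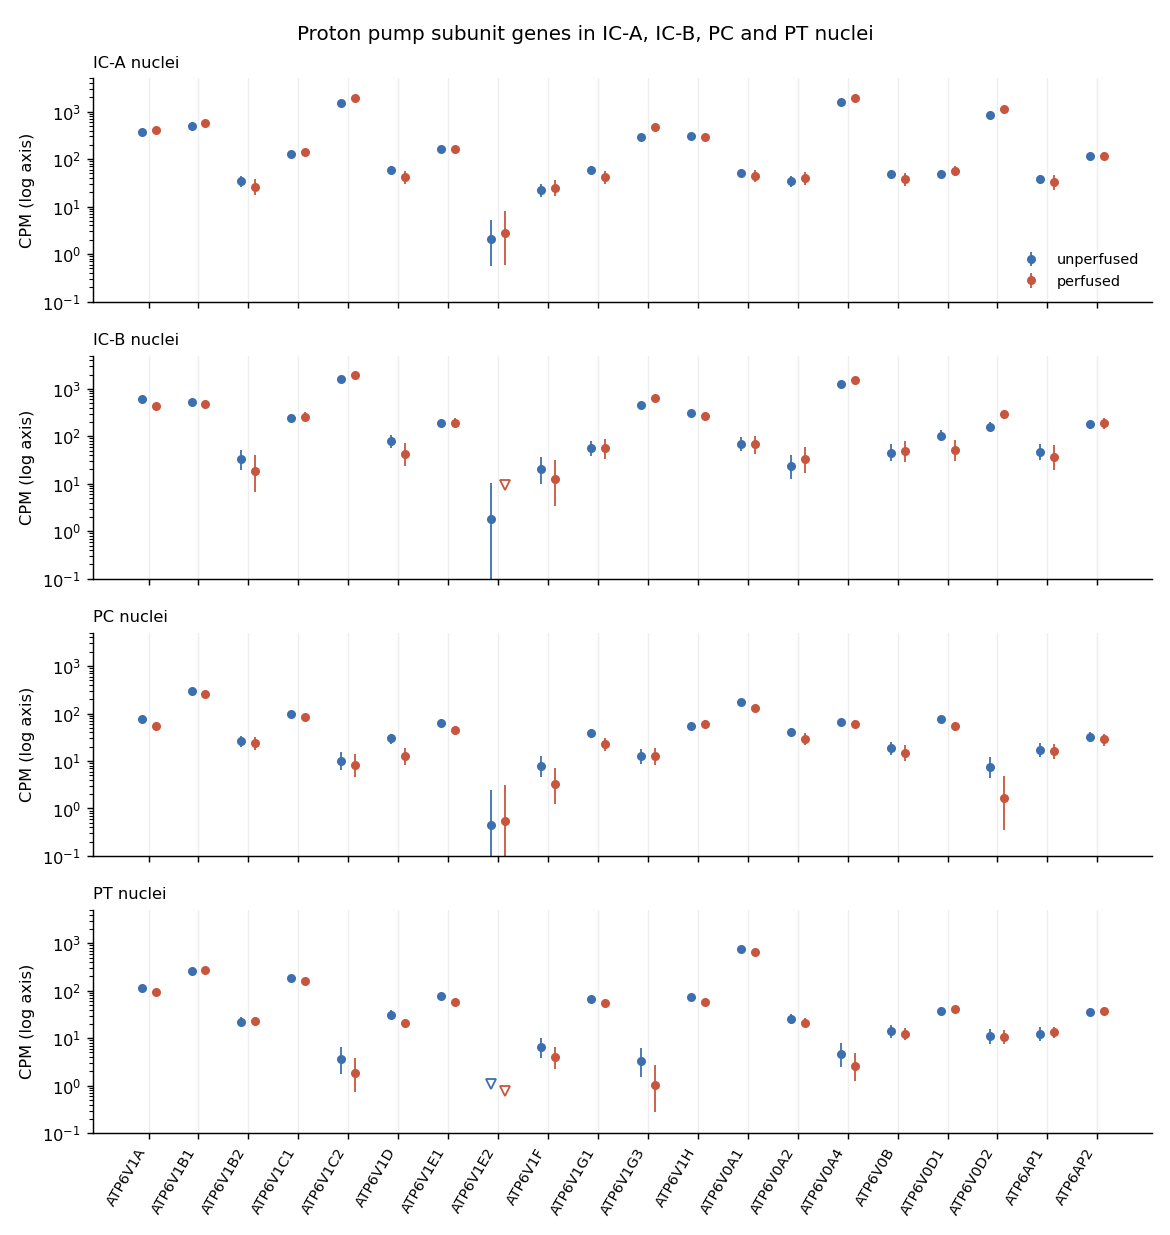
CPM on a log axis of the 20 V-ATPase subunit genes in the files, one row of panels each for IC-A, IC-B-like, PC-like and PT-like nuclei, in the unperfused (blue) and perfused (red) library. Bars are exact 95% counting intervals, and open triangles mark 0 UMIs at the level of 3 counts. Each gene is to be compared between panels, and ATP6V1C2, ATP6V0A4 and ATP6V1G3 stand high in both intercalated types and low in PC-like and PT-like nuclei.

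Of 29 acid-base transport genes, 27 were in the files and 18 were tested. The rule genes SLC26A7 and SLC4A1 chose the nuclei and are among the genes counted next. In both libraries 8 of the 18 were at least 2-fold over PC-like nuclei, against 5.52% of all genes tested. Over IC-B-like nuclei 4 were, against 4.22%, the rule genes SLC26A7 and SLC4A1 and besides them AQP6 and ADCY10, the bicarbonate-sensing adenylyl cyclase. RHBG, an ammonia transporter, had 402 and 386 CPM in IC-A, 215 and 290.1 CPM in IC-B-like, and 35.6 and 22.9 CPM in PC-like nuclei. RHCG, the apical ammonia transporter, had 301 and 255 CPM in IC-A and 221 and 272 CPM in PC-like nuclei, so it did not separate them. AQP6, an intracellular channel of acid-secreting cells, had 53.5 and 57.8 CPM in IC-A and 1.82 CPM in unperfused and 0 UMIs in perfused IC-B-like nuclei. CA2, the cytosolic carbonic anhydrase, had 248 and 243 CPM in IC-A and 294 and 204 CPM in IC-B-like nuclei. ATP12A, the colonic proton-potassium pump, had 13.9 and 20.5 CPM in IC-A and 194 and 190.1 CPM in PC-like nuclei.

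SLC4A9, an anion exchanger known from type B cells, was also present in IC-A nuclei. It had 336 CPM (311 to 363) in the unperfused and 462 CPM (422 to 505) in the perfused library, against 571 and 620.4 CPM in IC-B-like nuclei and 4.83 and 5.57 CPM in PC-like nuclei. A UMI of it was found in 63.8% and 69.0% of IC-A nuclei, and in 1.48% and 0.505% of PT-like nuclei, where the gene should be absent. In the members with at least 10 rule UMIs the share was 75.8% and 84.8%. The other type B genes tested or named were low, with INSRR at 24.7 and 38.2 CPM in IC-A against 354 and 429 CPM in IC-B-like nuclei, and HMX2 at 2 UMIs and 0 UMIs.

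The genes that most separated IC-A from IC-B-like nuclei, apart from SLC26A7, ADGRF5 and ADGRF1, were BCAT1, CCBE1, STK39, KCNJ3 and MAP3K15. STK39, a kinase that regulates chloride cotransporters, had 802 and 772 CPM in IC-A, 21.9 and 9.26 CPM in IC-B-like and 201 and 201 CPM in PC-like nuclei. BCAT1, a branched-chain aminotransferase, had 562 and 989.6 CPM in IC-A against 7.29 and 12.3 CPM in IC-B-like nuclei. KCNJ3, an inward rectifier potassium channel, had 169 and 249.7 CPM against 1.82 CPM and 0 UMIs. In the other direction stood SLC26A4, KAZN, UNC13C, CHL1, TLDC2, NYAP2, HMX2 and ENPP2. KAZN was at 283 and 97.8 CPM in IC-A against 16043 and 23567 CPM in IC-B-like nuclei, and it was at 139.7 and 79.9 CPM in the members with at least 10 rule UMIs.

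Against PC-like nuclei, the genes with the largest differences in favour of IC-A were PDE1C, ATP6V1C2, KCNMA1, ATP6V0D2, GPC5, SLC31A2, SLC26A7 and KIT. SLC31A2, which takes part in copper transport, had 669.7 and 538 CPM in IC-A, 328 and 278 CPM in IC-B-like and 9.66 and 2.23 CPM in PC-like nuclei. In favour of PC-like nuclei were KIF26B, SCNN1B, CHST9, SCNN1G, AQP2, ENPP3, ACOXL and ANGPT1, of which the ENaC genes and AQP2 had picked those nuclei. KIF26B, a kinesin, had 35.5 and 66.2 CPM in IC-A, but 19.0 and 16.8 CPM in the members with at least 10 rule UMIs, and 949 and 2629 CPM in PC-like nuclei.

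The transcription factors that make intercalated cells include FOXI1, without which the lineage does not form. FOXI1 had 103.4 CPM (89.6 to 119) in unperfused and 55.0 CPM (41.9 to 70.9) in perfused IC-A nuclei, 58.4 and 30.9 CPM in IC-B-like nuclei, and 1.32 and 0.557 CPM in PC-like nuclei. TFCP2L1 had 1105 and 1340.0 CPM in IC-A, 976 and 1241 CPM in IC-B-like and 509.8 and 567 CPM in PC-like nuclei. ESRRG, an orphan nuclear receptor, had 3148 and 5088 CPM in IC-A, 1663 and 3099 CPM in IC-B-like and 617 and 656 CPM in PC-like nuclei. HES1, a target of Notch signalling, had 25.7 and 11.2 CPM in IC-A and 275 and 245 CPM in PC-like nuclei. Of the 22 factors, 21 were in the files and 20 were tested, and 8 of the 20 were at least 2-fold over all other nuclei in both libraries, 5 over PC-like and 2 over IC-B-like nuclei, where the shares over all genes tested were 5.95%, 5.52% and 4.22%. Of the 20 tested receptor and signalling genes, 9 were at least 2-fold over all other nuclei, 10 over PC-like and 6 over IC-B-like nuclei, against the same shares. STAP1, an adaptor protein, was one of those over PC-like but not IC-B-like nuclei, at 431 and 429.6 CPM in IC-A against 578 and 750.0 CPM in IC-B-like nuclei.

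The second question was how IC-A nuclei of the perfused library differed from those of the unperfused one. The summed levels of the proton pump, transcription factor and signalling lists were higher in the perfused library and those of the heat shock, hypoxia and PT marker lists were lower. Of 9842 genes with at least 30 UMIs in IC-A nuclei, 84 (0.853%) were at least 2-fold higher and 547 (5.56%) at least 2-fold lower in the perfused library, and the median log2 ratio of all of them was -0.07. With nuclei weighted equally these counts were 252 and 700, and with DESeq2 size factors 129 and 427. Most genes thus differed by less than 2-fold. The DESeq2 factors raise every log2 ratio in the following by 0.11 and TMM factors raise it by 0.08.

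The summed level of the V-ATPase genes was 6218 CPM in unperfused and 7505 CPM in perfused IC-A nuclei, a log2 ratio of 0.27 (0.23 to 0.31). In IC-B-like nuclei the ratio was 0.13 (0.05 to 0.21), in PC-like nuclei -0.32 (-0.41 to -0.23) and in all nuclei other than IC-A -0.21 (-0.23 to -0.19). In IC-A nuclei 0 of the 19 tested genes passed 2-fold in either direction, near the 0.853% of all genes that were higher and the 5.56% that were lower, and the list's median was 0.11. The counting interval lay above 0 for 5 of the 19, where it did for 8.48% of all genes tested. These were ATP6V1G3 at 0.72 (0.55 to 0.90), the rule gene ATP6V0D2 at 0.38 (0.27 to 0.49), ATP6V1C2 at 0.34 (0.26 to 0.43), ATP6V0A4 at 0.31 (0.22 to 0.39) and ATP6V1B1 at 0.21 (0.06 to 0.36). It lay below 0 for ATP6V1D and ATP6V1G1, against 12.8% of all genes tested, both at -0.51 with an upper bound just under 0. A gene with many UMIs has a narrower interval, and the shares of all genes include those with as few as 30 UMIs. With at least 10 rule UMIs per member the summed log2 ratio was 0.28, and without ATP6V0D2 it was 0.25 (0.21 to 0.30).

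The acid-base genes gave a summed log2 ratio of 0.01 (-0.02 to 0.05). SLC26A7, at 0.05 (0.00 to 0.09), and SLC4A1, at 0.00 (-0.24 to 0.24), chose the nuclei under the same minimum in both libraries, so nothing is read from their ratios. Without these rule genes the list was at -0.044 (-0.10 to 0.01). Of the 18 tested, 0 were at least 2-fold higher and 1 was 2-fold lower, near the 0.853% and 5.56% of all genes. The 1 was BSND, the beta subunit of the basolateral chloride channels, which had 35.5 and 17.7 CPM, a log2 ratio of -1.003 (-1.82 to -0.25). SLC4A9 had a log2 ratio of 0.46 (0.29 to 0.63) and CA12, a membrane carbonic anhydrase, one of -0.20 (-0.29 to -0.11). The V-ATPase assembly genes summed to a log2 ratio of 0.03 (-0.03 to 0.09).

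The transcription factors summed to 10610.4 CPM in unperfused and 14196 CPM in perfused IC-A nuclei, a log2 ratio of 0.42 (0.39 to 0.45). The ratio was 0.41 (0.35 to 0.47) in IC-B-like, 0.20 (0.17 to 0.24) in PC-like and 0.14 (0.10 to 0.18) in PT-like nuclei. In all nuclei other than IC-A it was 0.16 (0.15 to 0.17). In IC-A nuclei 0 of the 20 tested were at least 2-fold higher and 1 at least 2-fold lower. This was near the shares of all genes (0.853% and 5.56%), and the median of the 20 was 0.13. ESRRG at 0.69 (0.64 to 0.75) and FOXP1 at 0.65 (0.58 to 0.71) held much of the sum. FOXI1 went the other way, at -0.91 (-1.36 to -0.49). The same gene had -0.92 (-2.11 to 0.14) in IC-B-like nuclei and -1.25 (-1.89 to -0.65) in all nuclei other than IC-A. HES1 was the 1 past 2-fold, at -1.20 (-2.25 to -0.27). PPARGC1A, a coactivator of mitochondrial genes, had -0.13 (-0.22 to -0.05) in IC-A nuclei and 0.42 (0.23 to 0.60) in IC-B-like nuclei.

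The receptor and signalling list, 20 genes tested of 29, summed to 16254 and 21094 CPM, a log2 ratio of 0.38 (0.35 to 0.40), with a median of 0.23. ADGRF1 was at 0.61 (0.53 to 0.68), HRH2 at 0.60 (0.45 to 0.74), NXPH2 at 0.59 (0.39 to 0.79) and ADGRF5 at 0.50 (0.46 to 0.55). The 1 gene past 2-fold was lower, near the 5.56% of all genes. This was P2RY14, the receptor for UDP-glucose, at 63.8 and 23.3 CPM, with a log2 ratio of -1.45 (-2.14 to -0.82). The potassium channel and WNK kinase list, 9 genes tested of 20, had a log2 ratio of 0.12 (0.07 to 0.18), with KCNMA1 at 0.30 (0.20 to 0.39). The 13 innate defence genes in the files, 5 of them tested, had a summed log2 ratio of -0.30 (-0.45 to -0.14), and P2RY14 is one of them too. DEFB1, an antimicrobial peptide and the most abundant of them, was at -0.18 (-0.36 to 0.01).

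Of the stress lists, heat shock and hypoxia genes had lower sums in the perfused IC-A nuclei. The heat shock chaperones summed to 1579 and 1306 CPM, a log2 ratio of -0.27 (-0.37 to -0.18). Of 21 tested, 17 were below 0, where 57.1% of all genes tested were, and the median was -0.39. More than 2-fold lower was 1 of the 21, a share close to the 5.56% over all genes. It was HSPA5, the chaperone of the endoplasmic reticulum, at -1.32 (-2.08 to -0.63). DNAJB1 was at -0.64 (-1.03 to -0.25) in IC-A, -2.10 (-3.11 to -1.22) in IC-B-like and -0.46 (-0.56 to -0.36) in PC-like nuclei. The summed heat shock ratio was -0.73 (-0.91 to -0.55) in IC-B-like and -0.30 (-0.35 to -0.26) in PC-like nuclei.

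The hypoxia list had a log2 ratio of -0.22 (-0.32 to -0.12) in IC-A and 0.02 (0.00 to 0.04) in all other nuclei. Of its 17 tested genes 12 were below 0, against 57.1% of all genes, and their median was -0.30. In each direction 1 was past 2-fold, where 0.853% of all genes were higher and 5.56% lower. These were ADM, the vasodilator adrenomedullin, at -1.01 (-1.58 to -0.48), and PFKFB3, a regulator of glycolysis, at 1.21 (0.35 to 2.08). VEGFA, a growth factor for vessels, had 132 and 77.3 CPM, a log2 ratio of -0.77 (-1.15 to -0.41). Immediate early genes summed to 349.8 and 331 CPM in IC-A nuclei, a log2 ratio of -0.08 (-0.27 to 0.11). In PC-like nuclei the same genes were at 0.57 (0.50 to 0.64). In PT-like nuclei they were at -0.54 (-0.73 to -0.34), and in IC-B-like nuclei at -0.24 (-0.61 to 0.12). In IC-A nuclei with at least 10 rule UMIs the ratio was -0.35, and with every member weighted equally it was 0.46. The NF-kB list was at -0.14 (-0.34 to 0.05), and the tubule injury list at -0.25 (-0.47 to -0.04) but at 0.17 with equal weights. The glucocorticoid list summed to a log2 ratio of 0.16 (0.10 to 0.23). Of its 13 tested genes, however, 9 were below 0, against 57.1% of all genes, and their median was -0.31.

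Genes of the mitochondrial genome summed to 1939 CPM in unperfused and 1136 CPM in perfused IC-A nuclei, a log2 ratio of -0.77 (-0.87 to -0.68). In all other nuclei they were at 1.44 (1.43 to 1.46), and in IC-B-like nuclei at -3.59 (-3.82 to -3.37), where 3 of the 87 unperfused nuclei were over 7% mitochondrial. Of 10 tested, 0 were at least 2-fold higher and 3 at least 2-fold lower in perfused IC-A nuclei, against 0.853% and 5.56% of all genes, and COX1 was at -1.36 (-1.55 to -1.18). With at least 10 rule UMIs per member the ratio was -1.14, and with every member weighted equally it was 0.27, so the sign depends on how nuclei are weighted. These transcripts are cytoplasmic, and with free RNA subtracted the ratio was -1.04. The 41 nuclear genes of oxidative phosphorylation summed to -0.08 (-0.14 to -0.02), with a median of -0.16.

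**Figure D4:**
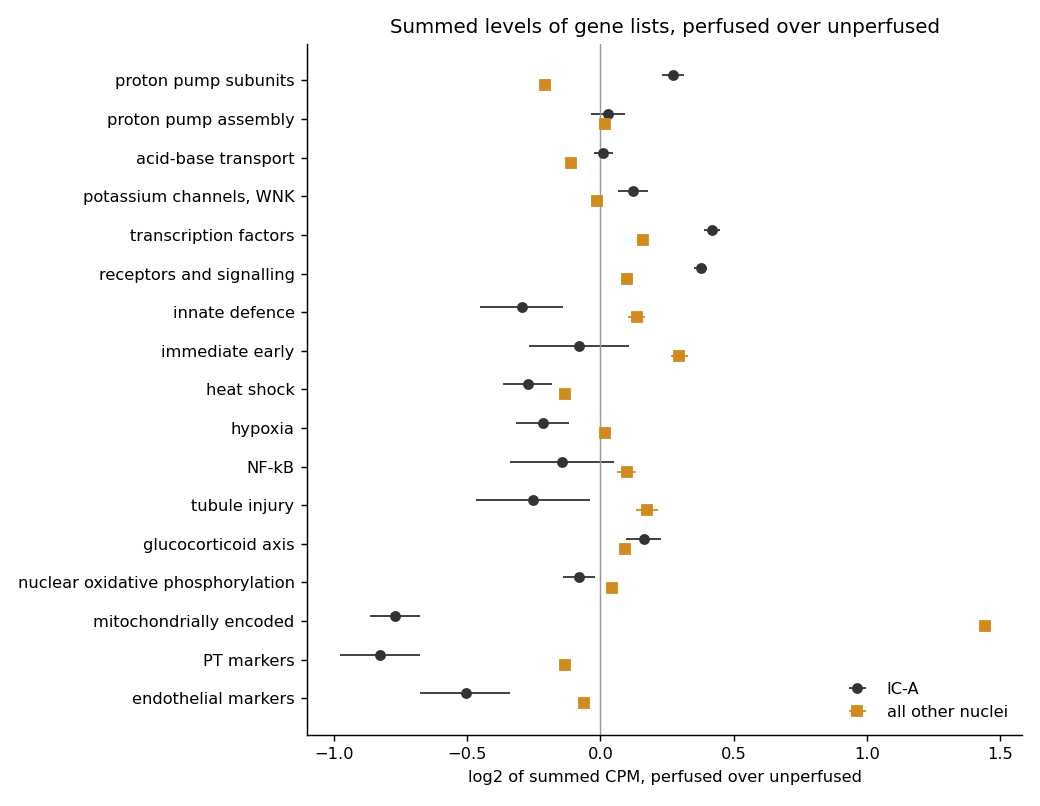
Log2 ratio of summed CPM, perfused over unperfused, of 17 gene lists in IC-A nuclei (black circles) and in all nuclei other than IC-A (orange squares), with exact 95% counting intervals. The V-ATPase subunits stand at 0.27 in IC-A and -0.21 in the other nuclei, and the mitochondrially encoded genes at -0.77 and 1.44.

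Markers of 3 other cell types were lower in the perfused IC-A nuclei, with intervals below 0. All 11 PT markers had a UMI in IC-A nuclei, and they summed to 782 and 441 CPM, with a log2 ratio of -0.83 (-0.98 to -0.68). CUBN, the most abundant, and LRP2 are limits of the rule and also picked the PT-like nuclei. The other 9 markers summed to 532 and 270.2 CPM in IC-A nuclei, a ratio of -0.98 (-1.17 to -0.79), and were at -0.027 (-0.048 to -0.0052) in PT-like nuclei. Of the 8 of these that were tested, 0 were at least 2-fold higher and 5 at least 2-fold lower, against 0.853% and 5.56% of all genes. All 10 endothelial markers had a UMI, EMCN being the most abundant, and summed to 533 and 376 CPM, a log2 ratio of -0.51 (-0.68 to -0.34), which was -0.08 with at least 10 rule UMIs per member. The distal convoluted tubule markers had 814 and 669 CPM, a ratio of -0.28 (-0.41 to -0.15), and TRPM7 was the most abundant. The summed thick limb list was higher, at 0.11 (0.01 to 0.22). Of its 5 tested genes, however, 3 were below 0, near the 57.1% of all genes, and their median was -0.18. With at least 10 rule UMIs per member its interval held 0 (-0.00074 to 0.22). The type B list was higher too, at 0.42 (0.26 to 0.58), and SLC4A9 was its most abundant gene. Stromal markers were at -0.27 (-0.54 to 0.00), which was -1.21 (-1.61 to -0.82) with at least 10 rule UMIs per member. Without SLC12A1 and SLC26A4, limits of the rule, the thick limb and type B lists were at 0.17 (0.06 to 0.28) and 0.44 (0.28 to 0.61). The 4 tested thick limb genes other than SLC12A1 had a median of -0.04. For the principal cell, connecting tubule, immune and podocyte lists the interval held 0, but without SLC8A1, another limit, the connecting tubule list was at -1.09 (-1.86 to -0.38), from 81 and 21 UMIs. The free RNA in IC-A nuclei, estimated from 4 tubule genes, was 11.1% of their UMIs before and 7.13% after perfusion. The estimate rests on UMOD, which alone gave 40.5% and 22.6%, while CUBN alone gave 6.12% and 4.16%. The genes other than UMOD were SLC12A1, LRP2 and CUBN, limits of the rule, so the choice of nuclei capped their levels and estimates. The part of free RNA in these differences was not tested.

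The 10 genes with the largest log2 ratio in favour of the perfused IC-A nuclei, among those with at least 50 UMIs in a library, were SPATA22, DGKG, ADAMTS16, NUAK2, CACNB2, MID1, CACNB3, BAHCC1, MYOM1 and FGF14. SPATA22, known from meiosis, had 52 UMIs in 23 unperfused and 207 UMIs in 42 perfused nuclei, or 26.7 and 193 CPM, a log2 ratio of 2.85 (2.41 to 3.32). It was also higher in the perfused library in PC-like nuclei, at 2.36 (1.91 to 2.84), and in PT-like nuclei, at 1.74 (1.44 to 2.05). DGKG, a diacylglycerol kinase, had 12.9 and 62.4 CPM, a log2 ratio of 2.28 (1.60 to 3.004).

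MYOM1, a protein of the muscle M band, was one of these genes with many UMIs in both libraries. It had 377 UMIs in 130 unperfused and 453 UMIs in 80 perfused IC-A nuclei, or 194 and 422 CPM, a log2 ratio of 1.12 (0.92 to 1.32). In PC-like and PT-like nuclei it stayed at or below 3.51 CPM, and in all nuclei other than IC-A its ratio was -0.10 (-0.37 to 0.16). CACNB3, a beta subunit of voltage-gated calcium channels, had 25.7 and 57.8 CPM, a log2 ratio of 1.17 (0.61 to 1.73). BAHCC1 had a UMI in 37 of 400 unperfused and 41 of 171 perfused IC-A nuclei, and its log2 ratio was 1.14 (0.52 to 1.78).

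Several of the 10 rested on few nuclei. ADAMTS16, a secreted protease, had 113 UMIs in 14 perfused nuclei, 27.4% of them in 1 nucleus, and it stood at 952 and 927 CPM in PC-like nuclei. NUAK2, an AMPK-related kinase, had 40.7% of its perfused UMIs in 1 nucleus. With at least 10 rule UMIs per member the log2 ratio of ADAMTS16 was 0.42 in place of 1.70, and that of NUAK2 was 0.25 in place of 1.28. For SPATA22 it was 2.94, for DGKG 2.23 and for MYOM1 1.14.

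In favour of the unperfused library were CD80, SLC17A1, GUCY1A2, GTSF1, RN18S, MEGF11, RLBP1, GPRL15, RPA3 and G6PC1. CD80, a costimulatory protein of immune cells, had 108 UMIs in 86 unperfused and 9 UMIs in 9 perfused IC-A nuclei, or 55.6 and 8.39 CPM, a log2 ratio of -2.73 (-3.90 to -1.75). GTSF1 had 76.6 and 15.8 CPM. Its log2 ratio was -2.27 (-3.09 to -1.55), and in all nuclei other than IC-A it was at -2.03 (-2.18 to -1.89). RN18S, a ribosomal RNA, was at -2.27 (-2.61 to -1.94) in IC-A and -1.16 (-1.21 to -1.12) in the other nuclei. SLC17A1 and G6PC1 are genes of the proximal tubule, with 666 and 682 CPM for SLC17A1 and 1378 and 1344 CPM for G6PC1 in PT-like nuclei. In IC-A nuclei SLC17A1 had 34.5 and 5.59 CPM. The log2 ratio was -2.62 (-4.12 to -1.43), and without called doublets this was -1.74.

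Most of the 10 genes that were lower in the perfused IC-A nuclei were lower elsewhere as well. In all nuclei other than IC-A, 9 of the 10 had a log2 ratio below 0, where 54.5% of all genes tested in IC-A did, with a median of -1.15, and the exception was GUCY1A2, a subunit of soluble guanylate cyclase, at 1.25 (1.15 to 1.35) there against -2.34 (-3.85 to -1.13) in IC-A. Of the 10 genes that were higher, 6 had a ratio above 0 in those nuclei, against 45.5% of all genes, with a median of 0.09. In PT-like nuclei 8 of these 10 were above 0 (median 0.42), against 44.0% of all genes. In PC-like nuclei 4 were (median -0.23), near the 41.4% of all genes. In IC-B-like nuclei 5 of the 9 with UMIs in both libraries were (median 0.17), against 44.1%. The difference between IC-A and the other nuclei was not tested.

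**Figure D5:**
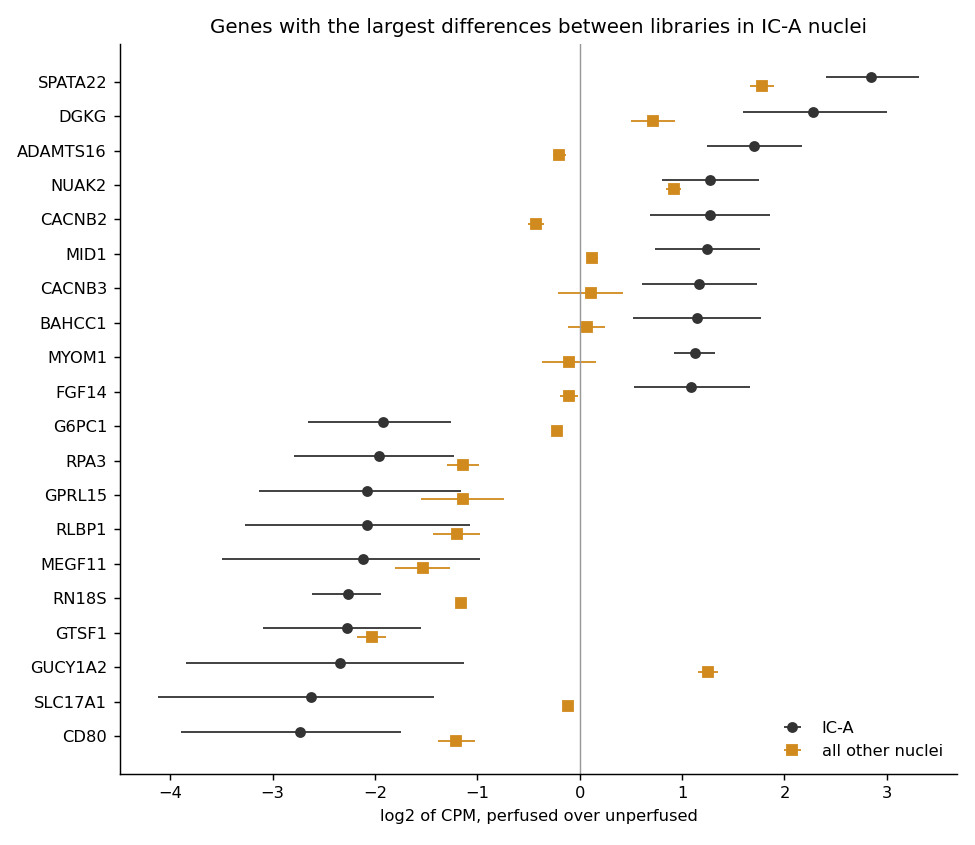
Log2 ratio of CPM, perfused over unperfused, of the 10 genes with the largest ratio in each direction in IC-A nuclei (black circles), beside the ratio in all nuclei other than IC-A (orange squares), with exact 95% counting intervals. GTSF1 stands at -2.27 and -2.03, MYOM1 at 1.12 and -0.10.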

How the data were processed

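Nuclei of 2 libraries, unperfused and perfused, were analysed. The authors aligned reads with Cell Ranger 5.0.1 to Ensembl's pig reference, introns included, and deposited whole-number UMI counts per gene and barcode, from before their filters. No coordinates or sequences were used here. The rule gave the members, and the members and gene lists were chosen with earlier results of these data known. PCR copies were collapsed by UMI, and the libraries held 32495713 and 32238306 UMIs in nuclei with 500 to 6000 genes. Counts were summed per library and class in Python 3.11.15 with scipy 1.17.1. Log2 ratios between libraries used CPM without an offset, and differences between classes used an offset of 5 CPM. A gene was tested for a 2-fold difference at 30 or more UMIs, where tested means compared with that fold and no p-value. Intervals were Poisson, conditional binomial and Clopper-Pearson. The computation was tested on simulated data. Gene symbols were those of the deposited annotation, with 822 filled from a table of identifiers, and 373 of 399 list genes were in the files. Doublets called by Scrublet in scanpy 1.11.5 were kept and left out as an alternative. Factors from edgeR 4.0.16 (TMM) and DESeq2 1.42.0 served as other scalings. Named genes were the markers, list members, the 15 leading genes with a UMI in at least 10% of members, 8 in each direction against IC-B-like and PC-like nuclei, and 10 in each direction between libraries with at least 50 UMIs in one and an interval without 0. The division of members by the number of rule UMIs was made after the data were seen.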

Additional observations from a re-analysis of the deposited data

Results flagged for a closer look

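Among the lists and the genes with a ratio between libraries given here, 21 had the opposite direction in IC-A nuclei and in all nuclei other than IC-A, with both counting intervals apart from 0. The difference between the classes was not tested in any of them, and each library is 1 sample. KCNMA1 had a log2 ratio of perfused over unperfused of 0.30 in IC-A and -0.25 in the other nuclei. ATP6V0D2 had 0.38 and -0.19, but it is one of the genes that chose the nuclei, so its values are a description. The summed V-ATPase list stood at 0.27 and -0.21, ATP6V1G3 at 0.72 and -0.21, ATP6V1C2 at 0.34 and -0.16, and ATP6V1B1 at 0.21 and -0.26. The other nuclei include IC-B-like ones, in which the V-ATPase list was higher too, at 0.13 (0.05 to 0.21). ATP6V1G3 and ATP6V1C2 also had higher levels there in the perfused library, so their rise was not particular to IC-A. The type B list stood at 0.42 and -0.69, and SLC4A9, its most abundant gene in IC-A nuclei, at 0.46 and -0.45. Within IC-B-like nuclei the list was at 0.03 (-0.05 to 0.12), their share was 1.24% of the unperfused and 0.676% of the perfused nuclei, and SLC26A4 of this list is a limit of the rule. CCBE1 had -0.53 and 0.80, PPARGC1A -0.13 and 0.26, and HSPA5 -1.32 and 0.22. ADAMTS16 had 1.70 and -0.20, but 0.42 (-0.22 to 1.06) in the IC-A nuclei with at least 10 rule UMIs, CACNB2 1.27 and -0.42, and FGF14 1.09 and -0.10. GUCY1A2 had -2.34 and 1.25, from 6 UMIs in the perfused IC-A nuclei. The mitochondrially encoded list stood at -0.77 and 1.44 (COX1 at -1.36 and 1.03) and the tubule injury list at -0.25 and 0.18, but with nuclei weighted equally both lists were above 0 in IC-A nuclei too, at 0.27 and 0.17. The innate defence list stood at -0.30 and 0.14, and the hypoxia list at -0.22 and 0.02. The nuclear genes of oxidative phosphorylation stood at -0.080 and 0.05, and the first value lies close to the median of all genes tested, -0.07. The -0.13 of PPARGC1A is of similar size to the 0.11 that DESeq2 factors add to every ratio in IC-A nuclei. The 0.02 of the hypoxia list in the other nuclei is close to 0.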

How the results depend on the processing

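No paired analysis was possible because each condition had 1 library. The minimum of 10 rule UMIs per member and the lists without the genes of the rule or its limits were added after the data were seen. The share of IC-A nuclei was 5.02% of the unperfused library with at least 3 rule UMIs, and with at least 10 it was 4.58% of the unperfused and 2.33% of the perfused library. The share of nuclei picked by 6 other genes was 9.24% and 5.10%, also higher in the unperfused library, but 53.1% and 47.4% of these nuclei met the rule. The summed V-ATPase log2 ratio was 0.35 with TMM factors, 0.38 with DESeq2 factors and 0.19 with nuclei weighted equally. The acid-base list was at -0.040 without doublets, 0.091 with TMM, 0.12 with DESeq2, -0.027 with free RNA subtracted, -0.070 with equal weights and -0.044 without the rule genes, so it has no stable direction. SLC26A7 was at -0.011 without doublets, -0.0086 with free RNA subtracted and -0.034 with equal weights. With equal weights the tubule injury list was at 0.17 and the mitochondrially encoded list at 0.27. The oxidative phosphorylation list was at 0.00030 with TMM and 0.034 with DESeq2. The count of genes at least 2-fold higher was 129 with DESeq2, 252 with equal weights, 524 without a minimum of UMIs and 13 at 100 UMIs or more, and of those lower it was 2063 and 113 under the last 2 settings.

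Against all other nuclei, the log2 difference of KCNMA1 was 5.07 (unperfused) and 5.61 (perfused) with an offset of 1 CPM, 4.48 and 4.92 with 20 CPM, 4.99 and 5.51 with at least 10 rule UMIs, and 5.08 and 5.54 with free RNA subtracted. HRH2 was at 4.99 and 5.55 with 1 CPM, 3.80 and 4.36 with 20 CPM, and 4.79 (unperfused) with free RNA subtracted. PDE1C was at 5.61 and 5.81 with 1 CPM, 5.30 and 5.51 with 20 CPM, 5.58 (unperfused) with at least 3 rule UMIs, 5.63 and 5.81 with at least 10, and 5.70 and 5.84 with free RNA subtracted. Of the settings for single genes and the other lists, 298 left the value within its counting interval, 29 moved it farther from 0 and 14 nearer to 0. Another 7 turned the direction of a value whose main interval did not hold 0. Values whose main interval held 0 were not counted as turned. Among these, the immediate early list went from -0.08 to 0.46 with equal weights. The cause of these changes was not tested. With 171 perfused nuclei, a gene at 0 UMIs has an exact upper bound of 3.44 CPM.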

Other observations

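Nuclei were also picked by 6 other genes (ATP6V1B1, ATP6V0A4, ATP6V1G3, FOXI1, KCNMA1 and HRH2) in place of the 3 rule genes, with the same minimum and limits. This took 650 unperfused and 302 perfused nuclei, which held 86.2% and 83.6% of the members, while 53.1% and 47.4% of the nuclei so picked were members.

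CCBE1, a secreted protein of lymphatic growth, had 3079 and 2139 CPM in IC-A nuclei against 89.3 and 37.0 CPM in IC-B-like nuclei, and its log2 ratio between libraries was -0.53 (-0.60 to -0.46). In all nuclei other than IC-A it was 0.80 (0.74 to 0.87). GLDN, a gene known from myelinating cells, had 243 and 419 CPM in IC-A nuclei, a log2 ratio of 0.79 (0.60 to 0.98), and a UMI in 32.0% and 41.5% of them. MAP3K15, a kinase, had 177 and 364 CPM in IC-A nuclei and 3.65 CPM and 0 UMIs in IC-B-like nuclei, with a log2 ratio of 1.04 (0.83 to 1.25). These differences between libraries have no replicate check.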
